A study of Mus musculus with 6 samples.

Results

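The probe sets for matrix metalloproteinases, ADAMs, the ADAMTS family and the tissue inhibitors of metalloproteinases were examined in mouse lung after cigarette smoke. A probe set was a member when its single gene symbol in the platform annotation began with Mmp, Adam, Adamts or Timp followed by a digit. This gave 43 of the 12488 probe sets on the array, for 33 genes. They were 20 probe sets of 16 Adam genes, 1 of Adamts1, 16 of 13 Mmp genes and 6 of 3 Timp genes. Total lung RNA was hybridised to 6 Affymetrix arrays, 1 for smoked and 1 for control mice of each of C57, DBA and ICR. The C57, DBA and ICR smoked mice received the smoke of 3 cigarettes a day on 5 days a week for 4 weeks, and the control mice of each strain are labelled as normal lung. The sources used here do not give age, sex or substrain, nor say whether RNA of several mice was pooled for an array. ICR is an outbred stock. The title of the series poses the question of which lungs resist smoke and which are sensitive to it, and the labels do not rank the strains.

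No group within a strain was replicated. The 3 strain pairs were the replicates of the smoke effect, and the 2 arrays of a strain were the replicates of a strain. The median deposited intensity was 52.5 to 85.0 on 5 arrays and 26.0 on the ICR smoked array. On that array the 3' to 5' ratio of signal was 4.75 for beta-actin, where the other arrays had 1.46 to 2.75. For Gapdh it was 2.39, where they had 0.952 to 1.69. Of 8 lung epithelial markers on the array, 7 or 8 were above the constant of 8.05 (defined with the tests) on each array. Sftpc, the surfactant protein of alveolar type II cells, read 7184 to 10579.

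Matrix metalloproteinases are zinc enzymes that cut collagens, elastin and other matrix proteins, and most are made as inactive precursors. ADAMs are membrane-bound relatives of which many shed growth factors, cytokines and receptors from the cell surface. TIMPs bind the active sites of these enzymes and block them. In the lung, Mmp12 is the elastase of macrophages, Mmp8 and Mmp9 are stored in neutrophil granules, and smoke-exposed mice that lack Mmp12 are known to be protected from emphysema.

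Among the members, 7 genes lie on mouse chromosome 9, where Mmp13, Mmp12, Mmp3, Mmp10, Mmp8 and Mmp7 follow each other in that order in the RefSeq annotation of GRCm38.p6. The promoters of Mmp3, Mmp12 and Mmp8 are shown because Mmp3 and Mmp12 differed between DBA and C57 in opposite directions, and Mmp8 had the largest difference between the DBA arrays. Each window runs from 150 bases before the annotated start to 10 after it, 5′ to 3′, on the plus strand, from RefSeq on GRCm38.p6. Capitals mark the letters TGANTCA, the AP-1 recognition sequence, and TATAAA, on either strand. The windows are chr9:7445672-7445831 for Mmp3, chr9:7344247-7344406 and chr9:7347224-7347383 for the starts of Mmp12, and chr9:7558279-7558438 for Mmp8.
Mmp3: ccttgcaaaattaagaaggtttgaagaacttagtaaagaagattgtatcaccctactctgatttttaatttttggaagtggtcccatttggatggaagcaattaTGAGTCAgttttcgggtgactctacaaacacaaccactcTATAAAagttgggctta
Mmp12, upstream start: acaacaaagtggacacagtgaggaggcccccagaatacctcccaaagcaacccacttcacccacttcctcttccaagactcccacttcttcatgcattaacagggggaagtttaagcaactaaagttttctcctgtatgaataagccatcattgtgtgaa
Mmp12, downstream start: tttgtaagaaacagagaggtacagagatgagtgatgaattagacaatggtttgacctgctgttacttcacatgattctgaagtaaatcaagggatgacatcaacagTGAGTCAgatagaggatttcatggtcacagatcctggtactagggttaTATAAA
Mmp8: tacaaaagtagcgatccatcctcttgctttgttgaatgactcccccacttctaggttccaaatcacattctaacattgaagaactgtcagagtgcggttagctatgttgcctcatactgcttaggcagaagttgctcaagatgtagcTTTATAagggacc

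The AP-1 letters began 46 bases before the start in Mmp3 and 44 before the downstream start in Mmp12. They were not in the windows of the upstream Mmp12 start or of Mmp8. RefSeq promoters were at hand for 20 of the 33 member genes, 24 promoters in all, and TGANTCA was in 6 of the 24, those of Mmp3, Mmp7, Mmp10, Mmp12, Mmp13 and Adam19. Among all 32851 mouse promoters of the same 300 bases, 7.81% held it. TATAAA was in 7 of the 24 member promoters, against 13.6% of all. A match is a description of these letters and not a binding site.

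A constant of 8.05, which is the 20th percentile of the intensities, was added before taking log2, and the arrays were then quantile normalized. Probe sets whose mean was above the 40th percentile were tested with limma, 7453 in all, and a difference is called at a Benjamini-Hochberg adjusted p below 0.05 over all of them. Of the members, 17 probe sets of 16 genes passed this filter on low signal. The other 26 probe sets did not, and 17 genes had no probe set that passed. They were Adamts1, the Adam genes 2, 4, 7, 11, 12, 17, 22 and 23, and the Mmp genes 2, 7, 8, 10, 13, 16, 17 and 24. The cutoff was a mean normalized log2 value of 5.34. The members nearest below it were Mmp17 at 5.04 and a second Mmp12 probe set at 5.30. The nearest above it were Mmp3 at 6.17 and Mmp9 at 6.22.

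Members that did not pass had low readings on most arrays. Of the 43 probe sets, 8 never read above the constant and 18 read above it on every array. Both probe sets of Mmp2, the gelatinase of mesenchymal cells, stayed between 1.25 and 19.4. Adam17, the TNF-alpha converting enzyme, read 8.23, 51.8 and 11.1 in C57, DBA and ICR smoked lungs, and 19.8, 16.1 and 4.47 in the control lungs of the same strains. Mmp8 had the highest reading among the members that did not pass, 475 on the DBA control array.

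**Figure D1:**
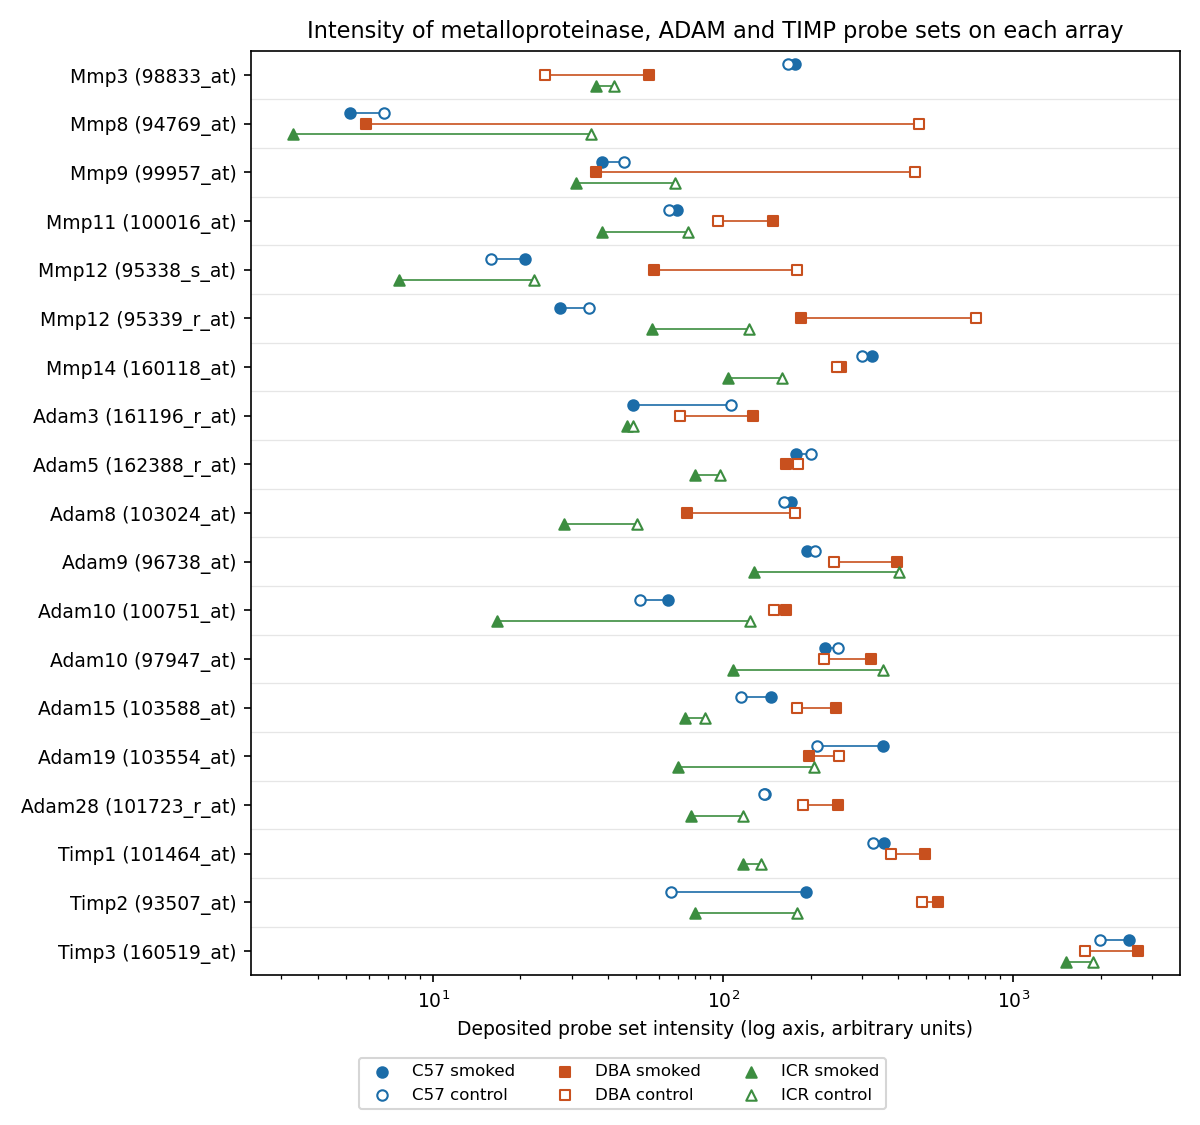
Deposited intensity on a log axis of the 17 probe sets that passed the filter, and of Mmp8 and the second Mmp12 probe set, which did not. Filled symbols are smoked and open symbols control lungs, 1 array each, joined by strain; the DBA control array stands apart for Mmp8, Mmp9 and both Mmp12 probe sets.

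Lungs of DBA mice differed from those of C57 mice in 3 of the 17 tested members, against 1.73% of all 7453 probe sets. Mmp12, the macrophage elastase, and Timp2, an inhibitor that also takes part in activating Mmp2 at the cell surface, were higher in DBA, where 0.872% of all probe sets were higher. Mmp3, the stromelysin that cuts proteoglycans and activates other metalloproteinases, was lower in DBA, as were 0.859% of all probe sets. In bulk lung, fewer cells of a type and less RNA per cell cannot be told apart.

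Mmp12 read 185 in smoked and 745 in control DBA lung, against 27.5 in smoked and 34.4 in control C57 lung. Both DBA arrays lay above both C57 arrays, and the DBA arrays themselves were far apart. The fitted difference was 3.01 on the log2 scale (SE 0.49, limma adjusted p = 0.0163), or 8.05-fold. Without the DBA control array it was 1.92 (limma adjusted p = 0.00130). The other Mmp12 probe set, which did not pass the filter, read 57.8 and 179 in smoked and control DBA lung, against 20.7 and 15.8 in smoked and control C57 lung, and again the strains did not overlap.

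Timp2 read 549 and 484 in smoked and control DBA lung, against 194 and 66.2 in smoked and control C57 lung. Every DBA array was above every C57 array, and the C57 control array was the lowest of the 6. The difference was 1.90 (SE 0.37, limma adjusted p = 0.0400), or 3.73-fold. Without the C57 control array it was 1.13 and was not called (limma adjusted p = 0.249). The other Timp2 probe sets stayed at or below 19.2 on all arrays, so the call rests on 1 probe set. Of these dim sets, 1 read 18.9 and 19.2 in smoked and control DBA lung, against 3.89 and 5.51 in C57. With no filter it was 0.78 higher in DBA (SE 0.24, limma adjusted p = 0.315). In the last set, the DBA readings of 1.97 and 7.41 overlapped those of C57, 2.51 and 2.28.

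Mmp3 read 55.5 and 24.3 in smoked and control DBA lung, against 177 and 167 in smoked and control C57 lung. The C57 arrays lay close together and well above both DBA arrays. The difference was -2.19 (SE 0.29, limma adjusted p = 0.00650), which is 4.55-fold lower in DBA. Mmp3 was called in all 15 alternatives run on it, with differences of -2.44 to -1.63. Mmp12 was called in 12 of 16 alternatives and Timp2 in 9 of 16. Without either ICR array, which enter the fit for the spread, Mmp3 was the single member called.

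The remaining members were not called between DBA and C57. The median difference over the 17 members was 0.22, against -0.03 over all 7453 probe sets, with 11 members above 0 and 6 below. Mmp9 differed by 1.28 (SE 0.73), Adam8, an ADAM of leukocytes, by -0.68, and Mmp14, the membrane-bound collagenase that activates Mmp2, by -0.45. Mmp9 was called without the DBA smoked array, at 3.05 (limma adjusted p = 1.88e-06), and Adam8 without the DBA control array, at -1.49 (limma adjusted p = 0.0281). Adam10, the sheddase of Notch and many other membrane proteins, has 2 probe sets that disagreed, with differences of 1.05 (SE 0.43) for the first and 0.03 for the second, in the order of the plots. At an unadjusted p below 0.05, 4 members passed, the 3 called and the first Adam10 probe set, against 11.5% of all probe sets.

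Markers of cell types moved in part with the same contrast. Skeletal muscle markers were lower in DBA for 6 of 8 tested, against 0.859% of all probe sets. Of 8 neutrophil, 9 macrophage and 11 fibroblast and smooth muscle markers tested, 0 were called between DBA and C57 by limma. At an unadjusted p below 0.05, 4, 0 and 0 of them passed, against 11.5% of all probe sets. The medians of these markers were 1.39, -0.14 and 0.08. The part of these cells in the Mmp12, Timp2 and Mmp3 differences was not tested.

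**Figure D2:**
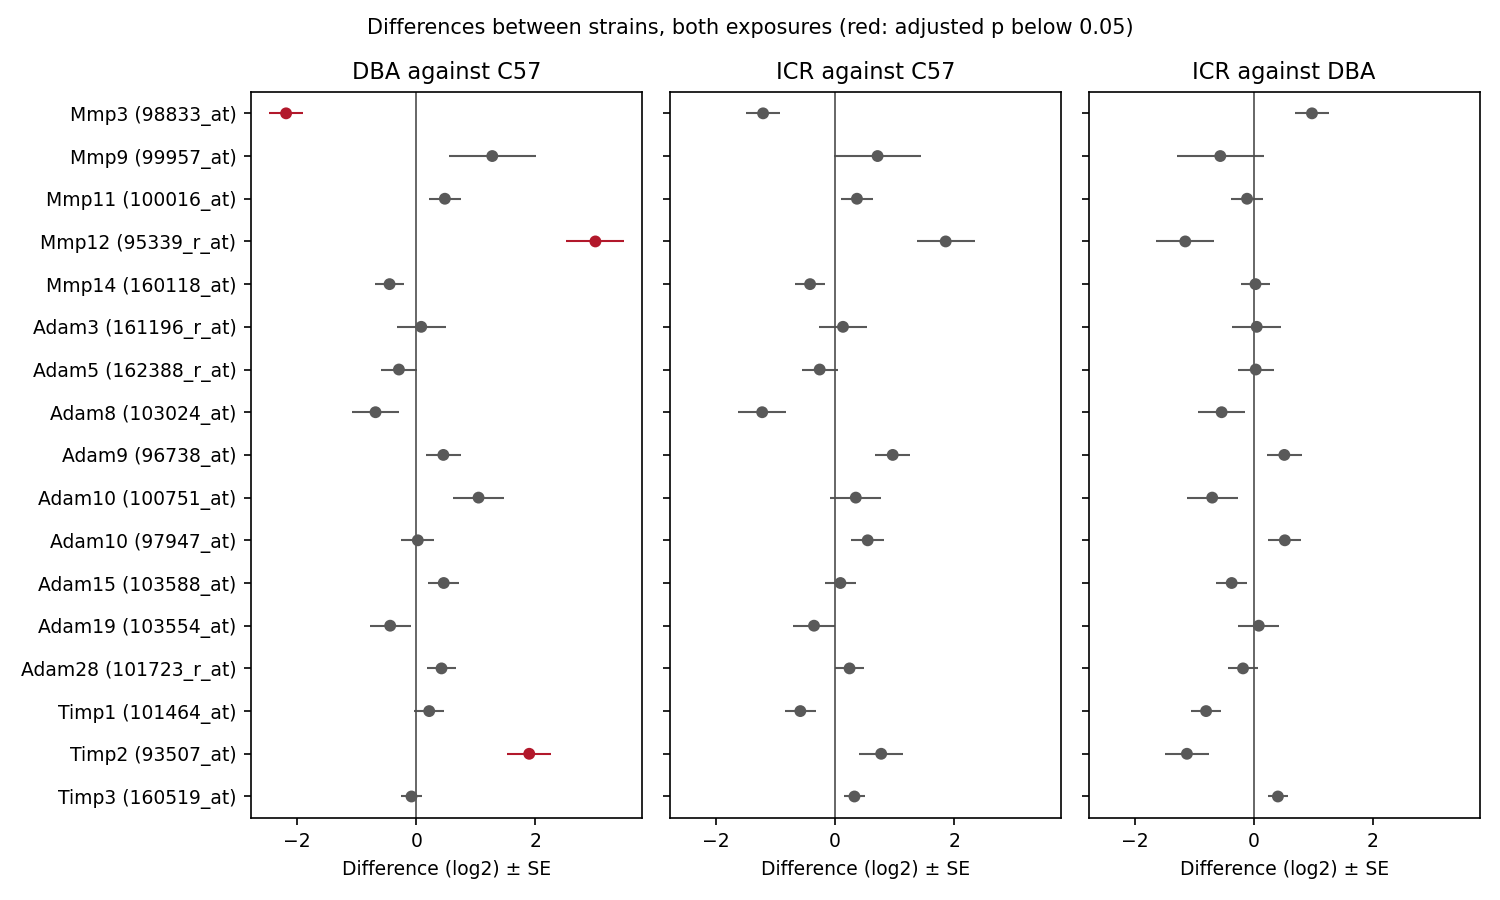
Fitted differences between strains over both exposures, on the log2 scale with limma standard errors, for the 17 tested members (2 arrays per strain). Red points have an adjusted p below 0.05, and these are Mmp12, Timp2 and Mmp3 between DBA and C57.

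ICR lungs were set against C57 and DBA lungs in the same fit. Of the 17 members, limma called 0 between ICR and C57, against 2.29% of all probe sets, and 0 between ICR and DBA, against 1.17%. At an unadjusted p below 0.05, 5 members passed in each comparison, against 18.0% and 15.6% of all probe sets. The comparisons of strains share arrays, so their values are given side by side.

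Mmp12 read 56.96 and 123 in smoked and control ICR lung, between the deposited readings of DBA and C57 given above. After normalization the ICR control array, at 7.13, was above the DBA smoked array, at 7.08. Mmp12 in ICR was 1.86 higher than in C57 (SE 0.49, limma adjusted p = 0.0921) and differed from DBA by -1.15 (SE 0.49, limma adjusted p = 0.303). The other Mmp12 probe set, which did not pass the filter, read 7.61 and 22.3 in smoked and control ICR lung. That range overlapped its C57 readings of 20.7 and 15.8, and with no filter its ICR against C57 difference was 0.11 (SE 0.51). The higher level in ICR than in C57 thus rests on 1 probe set. Mmp3 read 36.3 and 42.1 in smoked and control ICR lung, below both C57 arrays. It differed from C57 by -1.21 (SE 0.29, limma adjusted p = 0.0761) and from DBA by 0.98 (SE 0.29, limma adjusted p = 0.159). Mmp3 passed against C57 when arrays were centred on a common median (-1.33, limma adjusted p = 0.0493) or left unscaled (-1.93, limma adjusted p = 0.0401).

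Adam8 read 28.4 and 50.6 in smoked and control ICR lung, against 171 and 162 in smoked and control C57 lung. The ICR arrays lay below the C57 arrays, and the difference was -1.22 (SE 0.40, limma adjusted p = 0.152). Adam9, a widely expressed sheddase, read 128 and 403 in smoked and control ICR lung, against 195 and 208 in smoked and control C57 lung. The deposited readings overlapped, and the normalized difference was 0.97 (SE 0.29, limma adjusted p = 0.126). Without the DBA smoked array, the differences between ICR and C57 were -1.23 for Adam8, 0.97 for Adam9, 1.86 for Mmp12 and -1.21 for Mmp3. Without the DBA control array they were -1.23, 0.98, 1.87 and -1.21 in the same order. Skeletal muscle markers were lower in ICR than in C57 for 6 of 8 tested, as were Sftpb and Foxj1 of 7 lung epithelial markers. Of all probe sets, 2.29% were called between ICR and C57 in either direction. The part of these cell types in the members' differences was not tested.

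None of the 3 inhibitors was called between ICR and DBA, and all 3 were among the 5 at an unadjusted p below 0.05. Timp1, an inhibitor released during inflammation and repair, read 117 and 135 in smoked and control ICR lung, against 495 and 380 in smoked and control DBA lung. The ICR readings were the lowest of the 6 arrays, and the difference was -0.80 (SE 0.26, limma adjusted p = 0.187). Timp2 differed by -1.12 (SE 0.37, limma adjusted p = 0.205). Timp3, the inhibitor that binds to the matrix and also blocks Adam17, differed by 0.41 (SE 0.17, limma adjusted p = 0.308), and by -0.36 without scaling between arrays.

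No member was called for a smoke effect shared by the 3 strains. limma called 0 of the 17, against 0.0403% of all probe sets, and 1 member, Timp3, passed at an unadjusted p below 0.05, against 1.64%. The members' median smoke effect was 0.09, against 0.01 for all probe sets, with 10 members above 0 and 7 below. The range ran from -1.33 for Mmp9 to 0.50 for Mmp3.

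Timp3 read 2503, 2682 and 1520 in C57, DBA and ICR smoked lungs, against 1983, 1768 and 1885 in the control lungs of the same strains. The smoked array was the higher of the pair in C57 and DBA, and in ICR only after normalization. Smoked minus control differences were 0.32, 0.39 and 0.40, and the shared effect was 0.37 (SE 0.14, limma unadjusted p = 0.0284, adjusted p = 0.99995). Timp1 read 358, 495 and 117 in the smoked lungs, against 329, 380 and 135 in the control lungs. Its normalized differences were 0.18, 0.08 and 0.78, and its shared effect was 0.35 (SE 0.21).

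Timp2 had no common direction. Its differences were 1.37 in C57, -0.14 in DBA and -0.16 in ICR. The shared effect of 0.36 (SE 0.30) was -0.14 without the C57 pair. Mmp3 had differences of 0.12, 0.68 and 0.71 and a shared effect of 0.50 (SE 0.24).

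In all 3 strains, 6 members had a smoked reading above control after normalization, Timp1, Timp3, Mmp3, Mmp11, Adam15 and Adam28, against 9.86% of all probe sets. Mmp9 and Mmp12 were below control in all 3, against 7.77% of all. Their other probe sets, which did not pass the filter, were above control in some strains. The differences there were 0.11 in C57 and 0.22 in ICR for Mmp9, and 0.28 in C57 for Mmp12. Each was below control in the remaining strains. The counts of 6 and 2 depended on the scaling. With arrays centred on a common median they were 4 and 2, without Mmp11 and Adam28. With no scaling they were 0 and 3, where Mmp9, Mmp12 and Adam5 were the 3, and all probe sets then had a median difference of -0.87 in ICR. Adam15, which is found on vascular cells and sheds cadherins, had differences of 0.32, 0.13 and 0.73. Mmp11, the stromelysin of stromal fibroblasts, had 0.08, 0.30 and 0.02. Adam28, an ADAM of lymphocytes, had 0.04, 0.07 and 0.40.

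Leaving out the C57 pair brought members past the threshold. With DBA and ICR alone, Mmp9 was called lower in smoked lungs, at -1.84 (SE 0.35, limma adjusted p = 4.32e-05), as was Mmp12, at -1.18 (SE 0.32, limma adjusted p = 0.0269). Mmp8 passed the filter there through its control readings of 475 in DBA and 35.0 in ICR, and no test of it is given. With all 3 pairs, Mmp9 was at -1.33 (SE 0.60) and Mmp12 at -0.87 (SE 0.40). Of the pairs that remained, DBA held nearly all of the difference for both genes. With all arrays normalized together, Mmp9 differed by -3.68 in DBA and -0.12 in ICR. Mmp12 differed by -2.33 in DBA and -0.08 in ICR, so these calls do not show an effect in both strains.

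**Figure D3:**
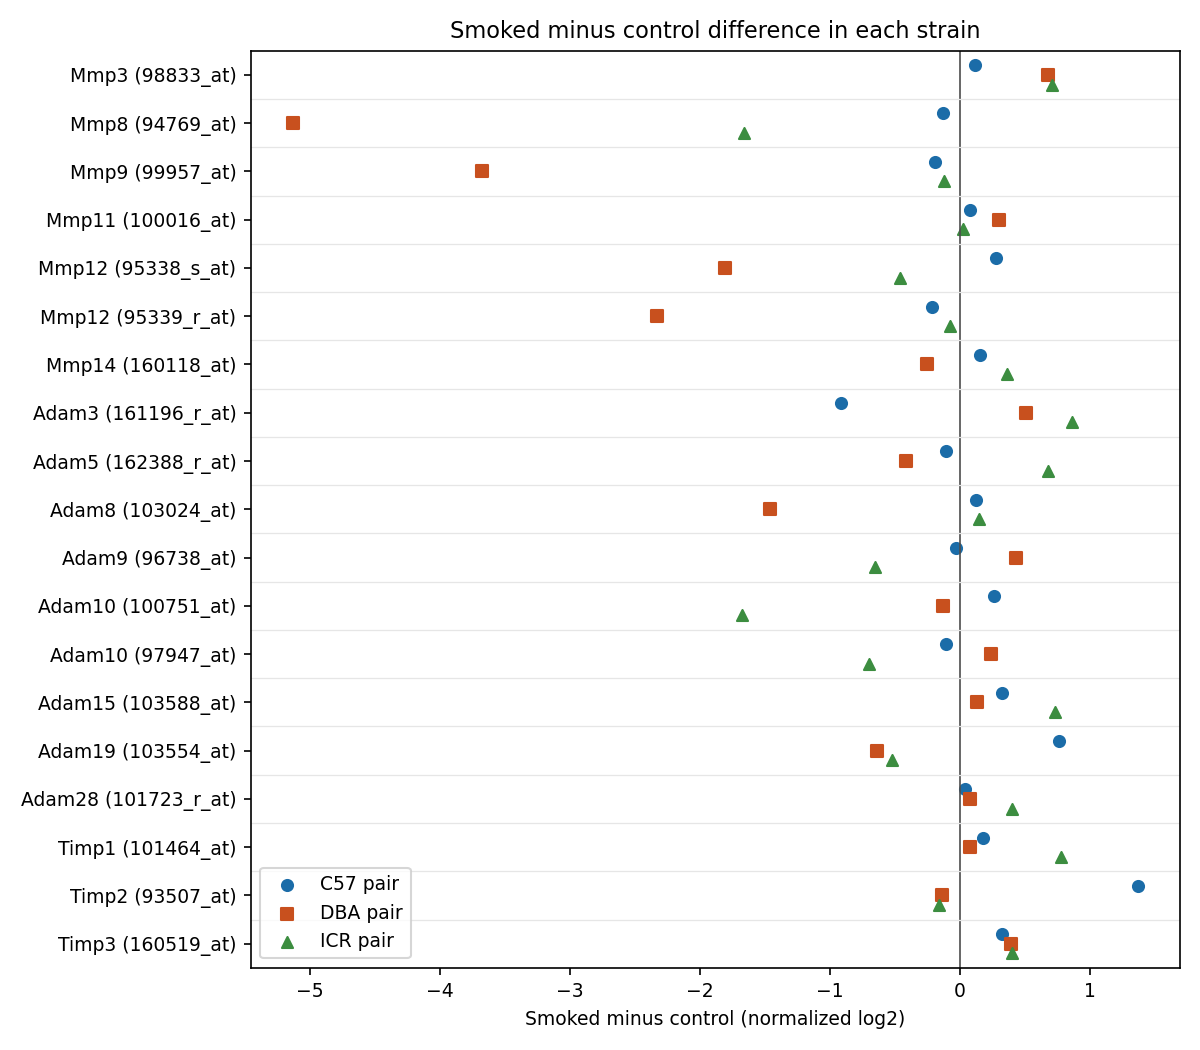
Smoked minus control difference on the normalized log2 scale in each strain, 1 pair of arrays per strain and no error bar, for the tested members, Mmp8 and the second Mmp12 probe set. The DBA pair lies far below 0 for Mmp8 (-5.13), Mmp9 (-3.68) and Mmp12 (-2.33), and the C57 pair highest for Timp2 (1.37).

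Within DBA, 3 of the 17 tested members were at least 2-fold lower in smoked lung, Mmp9, Mmp12 and Adam8, against 2.36% of all probe sets, and 0 were 2-fold higher, against 0.684%. These counts have no test. The question of whether DBA responded differently from the other strains was tested with an extra smoke term for DBA, which called 2 members, Mmp9 and Mmp12, both lower. Of all probe sets 0.711% were called in this test and 0.577% were lower. With 1 pair per strain, the response of DBA and an unusual sample cannot be told apart.

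Mmp9, the gelatinase of neutrophils, read 36.5 in smoked DBA lung, against 459 in control DBA lung. In C57 it read 38.1 and 45.3, and in ICR 31.0 and 68.0, in smoked and control lungs. The DBA control array was the single high one, and the other 5 lay between 31.0 and 68.0. The DBA response differed from that of the other strains by -3.52 on the log2 scale (SE 0.59, limma adjusted p = 4.86e-06), which is 11.5-fold lower. The other Mmp9 probe set was dim, at 8.97 in smoked and 21.4 in control DBA lung and below the constant on the other arrays.

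Mmp12 had smoked minus control differences of -2.33 in DBA, -0.22 in C57 and -0.08 in ICR. The test gave -2.18 (SE 0.55, limma adjusted p = 0.0159), or 4.53-fold lower. The second probe set had differences of -1.81, 0.28 and -0.46 in DBA, C57 and ICR. Unlike Mmp9, the tested Mmp12 probe set read 185 in smoked DBA lung, above every deposited C57 and ICR reading, at most 123. After normalization this did not hold, with 7.08 in smoked DBA lung against 7.05 and 7.13 in smoked and control ICR lung. Under the alternatives for this test, Mmp9 was called in 6 of 9 and Mmp12 in 5 of 10. Neither was called with no filter, with no scaling, or with the variance prior taken from the fit of the shared smoke effect.

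Mmp8, the neutrophil collagenase, read 5.89 in smoked DBA lung, against 475 in control DBA lung. It read 5.17 and 6.75 in smoked and control C57 lung, and 3.29 and 35.0 in smoked and control ICR lung. The DBA and ICR control arrays were the 2 above the constant. The differences were -5.13 in DBA, -0.13 in C57 and -1.66 in ICR, and their size depends on the constant. Mmp8 did not pass the filter. With no filter, its DBA response was -4.23 (SE 0.80, limma adjusted p = 0.223).

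Adam8 read 74.9 in smoked and 177 in control DBA lung, and its differences were -1.46 in DBA, 0.12 in C57 and 0.15 in ICR. The DBA response was -1.60 (SE 0.56, limma adjusted p = 0.326) and was not called. At an unadjusted p below 0.05, 3 members passed, Mmp9, Mmp12 and Adam8, against 3.94% of all probe sets. The members' median DBA response was -0.39, against 0.02 for all probe sets.

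Neutrophil markers were also lower in smoked than in control DBA lung. Of 12 markers, 11 are on the array, and their summed deposited intensity was 1608 in smoked DBA lung against 18540 in control DBA lung. In C57 the sums were 1471 and 1347, and in ICR 1201 and 3220, in smoked and control lungs. Adam8 did not share the low C57 level, at 171 and 162 in smoked and control C57 lung. Ngp, a neutrophil granule protein, read 6.42 in smoked and 2551 in control DBA lung and 5.40 to 35.0 elsewhere. It was below the constant on the C57 control, DBA smoked and ICR smoked arrays. Of 8 markers tested, 5 had a lower response in DBA by limma, against 0.577% of all probe sets. They were Camp, S100a8, S100a9, Lcn2 and Ngp. Ngp passed the filter only through its high DBA control reading, so its call adds no separate result. On each array 8 to 11 of the 11 read above the constant.

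As a sum, macrophage markers differed less. Their summed intensity over 11 markers was 6086 in smoked DBA lung against 7904 in control DBA lung, 7046 against 5342 in C57, and 3968 against 6958 in ICR. Of 9 tested, 1 had a lower response in DBA by limma, against 0.577% of all probe sets, and 8 were below 0. The 1 called was Chil3, a secreted protein of alveolar macrophages, at -3.15 (SE 0.48, limma adjusted p = 3.19e-07). Chil3 also had a higher response in C57, at 2.86 (SE 0.54, limma adjusted p = 0.00923). On each array 10 or 11 of the 11 macrophage markers read above the constant. The part of neutrophils and macrophages in the readings of Mmp8, Mmp9, Mmp12 and Adam8 was not tested.

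**Figure D4:**
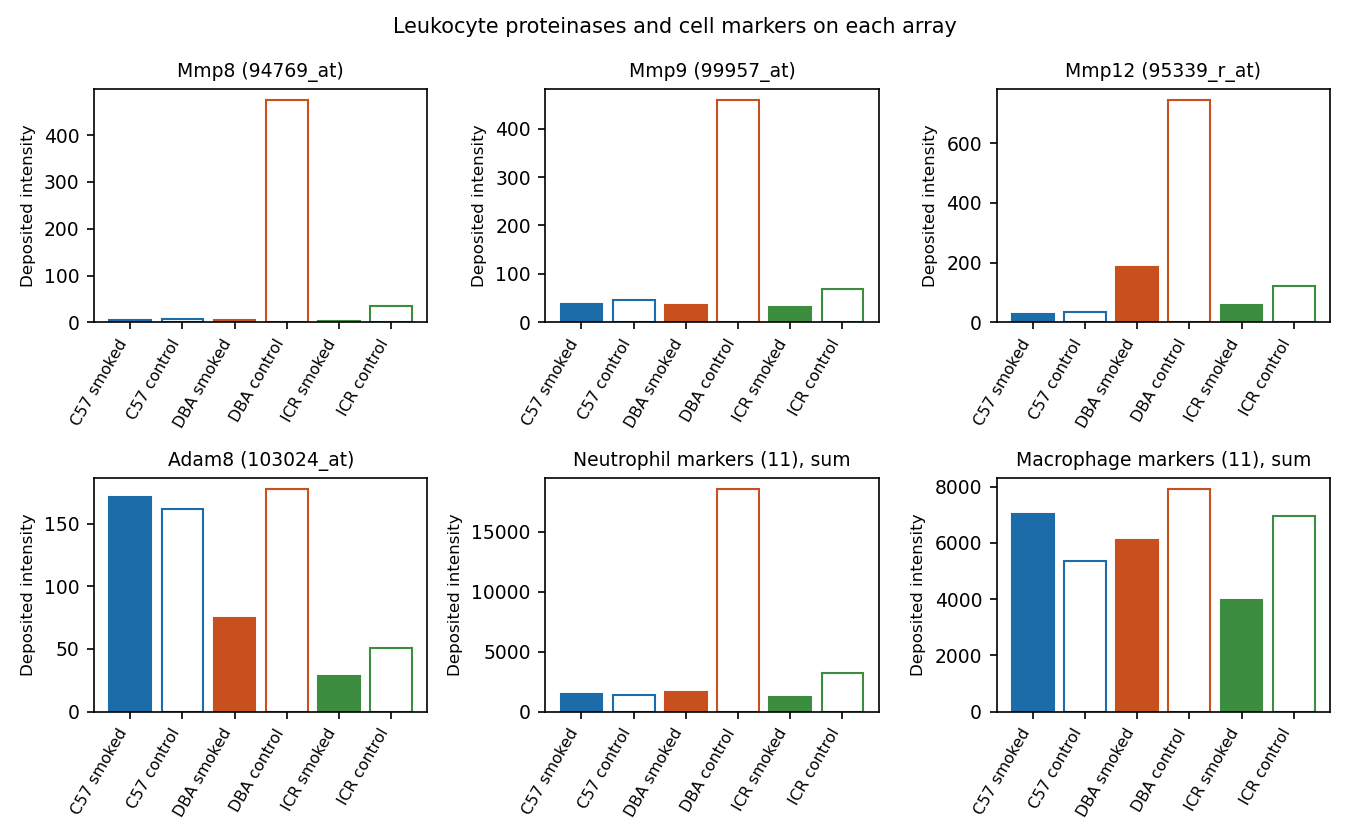
Deposited intensity of Mmp8, Mmp9, Mmp12 and Adam8, and summed intensity of 11 neutrophil and 11 macrophage markers, on each array. Filled bars are smoked and open bars control lungs; the DBA control array holds the tallest bar in every panel, by the widest margin for Mmp8, Mmp9 and the neutrophil sum.

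In C57 the largest difference among the tested members was that of Timp2, which read 194 in smoked and 66.2 in control lung. It was the 1 member at least 2-fold higher in the C57 pair, against 0.765% of all probe sets, and 0 were 2-fold lower, against 0.443%. The test of the C57 response called 0 members by limma, against 0.134% of all probe sets, and 4 passed at an unadjusted p below 0.05, against 3.01%. For Timp2 the response was 1.51 above that of the other strains (SE 0.54, limma adjusted p = 0.844).

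The other members of those 4 were Mmp9, Adam19 and Adam3, all with a limma adjusted p of 0.9997. Adam19, which sheds neuregulin, read 356 in smoked and 211 in control C57 lung. It read 198 and 250 in DBA, and 69.6 and 205 in ICR, in smoked and control lungs. C57 was the one strain with the higher reading after smoke, and its response was 1.34 above that of the others (SE 0.54). Mmp9 was 1.71 above the others (SE 0.81), a value that draws on the low DBA response given above. Adam3, known in mice as a sperm protein, differed by -1.60 (SE 0.63).

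Among the 17 tested members, both probe sets of the sheddase Adam10 and that of Adam9 had the largest differences downward in ICR. The first Adam10 probe set read 16.7 in smoked and 124 in control ICR lung, and the second read 108 in smoked and 357 in control. In C57 the 2 probe sets read 64.6 and 224 in smoked and 51.7 and 249 in control lung. In DBA they read 165 and 323 in smoked and 150 and 222 in control lung. After normalization the ICR differences were -1.68 and -0.70, and the first probe set was the 1 member at least 2-fold lower in ICR, against 3.69% of all probe sets. None of the 17 was 2-fold higher, against 2.79%.

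The test of the ICR response called 0 members by limma, against 0% of all probe sets, and 2 passed at an unadjusted p below 0.05, against 14.3%. They were the first Adam10 probe set at -1.74 (SE 0.37, limma adjusted p = 0.302) and Adam5 at 0.94 (SE 0.33, limma adjusted p = 0.331). Adam9 had smoked minus control differences of -0.65 in ICR, 0.44 in DBA and -0.03 in C57. The dim ICR smoked array with its high 3' to 5' ratios is one side of every ICR difference, and its part in them was not tested. With no scaling, both Adam10 probe sets, Adam9, Adam19 and Timp2 were called lower in this test, while 1787 of all probe sets were called.

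The membrane-bound Mmp14 was not called in any comparison. It read 325, 255 and 104 in C57, DBA and ICR smoked lungs, against 301, 246 and 160 in the control lungs. Its normalized differences were 0.15, -0.25 and 0.37, with no common direction.

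Adam5 and Adam3 are known from the testis in mice. One Adam5 probe set read 80.2 to 201, while the other Adam5 probe set stayed between 1.13 and 7.85. One Adam3 probe set read 46.7 to 127, while the other Adam3 probe set stayed between 0.416 and 16.0. In both genes the probe set that passed the filter has the suffix r, which the maker gives to sets whose probes did not meet all of its selection rules. Of 10 testis markers on the array, 3 to 6 read above the constant on each array and 2 passed the filter. The tested probe sets of Mmp12 and Adam28 carry the same suffix.

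Genes that act with the members were listed by role and described by counts. For the shared smoke effect, limma called 0.0403% of all probe sets, and 1.64% passed at an unadjusted p below 0.05. The shares called in the other comparisons are given above. Among activators and other inhibitors, 17 of 31 genes were tested, and limma called 0 for the shared smoke effect, with 1 at an unadjusted p below 0.05 and a median of 0.04. Plat, the tissue plasminogen activator, was the 1 gene called between DBA and C57, at 1.34 higher in DBA (SE 0.24, limma adjusted p = 0.0249). Lcn2, which binds Mmp9 in neutrophil granules, had a higher response in C57 by 2.87 (SE 0.59, limma adjusted p = 0.0239) and a lower one in DBA by -3.01 (SE 0.54, limma adjusted p = 3.2e-05).

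Among proteins shed by ADAMs, 19 of 36 genes were tested, and limma called 0 for the shared smoke effect, with 1 at an unadjusted p below 0.05 and a median of 0.02. Efnb2, a membrane-bound ephrin, was 1.07 higher in ICR than in C57 (SE 0.19, limma adjusted p = 0.0259). Among matrix substrates, 30 of 40 genes were tested, and limma called 0 for the shared smoke effect, with 0 at an unadjusted p below 0.05 and a median of 0.10. Hspg2, the basement membrane proteoglycan perlecan, differed by -1.41 between ICR and C57 (SE 0.26, limma adjusted p = 0.0290).

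Among transcription factors and signals that act on metalloproteinase genes, 24 of 33 were tested. For the shared smoke effect limma called 0, with 3 at an unadjusted p below 0.05 and a median of 0.07. Jun, a subunit of AP-1, read 291 and 546 in smoked and control ICR lung, against 345 and 332 in smoked and control C57 lung. After normalization Jun was 1.03 higher in ICR than in C57 (SE 0.22, limma adjusted p = 0.0490) and 1.18 higher than in DBA (SE 0.22, limma adjusted p = 0.0456). Il1b, a cytokine known to induce Mmp3, was 1.73 higher in ICR than in C57 (SE 0.27, limma adjusted p = 0.0163). Mmp3 differed by -1.21 between ICR and C57 (SE 0.29, limma adjusted p = 0.0761) and was not called. A link between Il1b and Mmp3 was not tested.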

How the data were processed

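Total lung RNA was labelled with biotin and hybridised, per the labels' protocols. The authors deposited 1 probe set intensity per array on a linear scale. How they summarised and scaled the probes is not given here. On the log2 scale the array medians differed by up to 1.45. With 1 array per group, the number of arrays limits precision, and nothing says how many mice an array holds. The p-values of the shared smoke effect and the strain comparisons thus measure the spread between these arrays. A test of one strain's response fits that strain's pair exactly. Its p-value rests on the spread between the other pairs and on the variance prior.

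Values were taken as log2(value + 8.05), quantile normalized over all probe sets, and the 66 control probe sets were then left out. Those whose mean exceeded the 40th percentile entered lmFit and eBayes (trend on the mean) of limma 3.58.1, run in R 4.3.3. Strain was a block for the smoke effect (3 pairs, 2 residual degrees of freedom), and strains were compared in the same fit. A strain's response was an extra smoke term (1 residual degree of freedom), which assumes that its single pair varies like the others. Tests were 2-sided. The script was tested on simulated data. Figures used matplotlib 3.10.9 in Python 3.11.15.

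Gene names came from the platform annotation, which gives 1 symbol to 10855 probe sets, several to 396 and none to 1237. Named members were all Timp genes, those called, the 4 largest differences in each direction per comparison, the 5 per direction of one sign in all strains with the largest smallest difference, and 8 with well-known roles. Members whose values fall outside that rule were chosen after their values were seen, as was the TATAAA search. The members and lists were chosen with earlier results of these data known. Alternatives were other constants, filters, scalings and variance priors, no block, and each pair or array left out. Normalizing without control probe sets was added after the data were seen.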

Additional observations from a re-analysis of the deposited data

Results flagged for a closer look

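The smoke response of DBA differed from that of the other strains by an interaction term for Mmp9, at -3.52 (SE 0.59, limma adjusted p = 4.86e-06). In the DBA pair the smoked minus control difference was -3.68, against -0.19 in C57 and -0.12 in ICR. Mmp12 differed by the same test, at -2.18 (SE 0.55, limma adjusted p = 0.0159), with pair differences of -2.33 in DBA, -0.22 in C57 and -0.08 in ICR. Both values rest on 1 DBA smoked and 1 DBA control array, and the high readings, 459 for Mmp9 and 745 for Mmp12, were on the DBA control array. That array also had the highest sum of neutrophil markers, 18540, against 1201 to 3220 on the others. No group had enough arrays to test for outliers.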

How the results depend on the processing

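Members called for the shared smoke effect numbered 0 under every alternative except leave-one-out, which gave 0 to 3 (Mmp8, Mmp9 and Mmp12 without the C57 pair, Mmp8 passing the filter there only through its control readings). Between DBA and C57 the count of 3 became 1 with no filter and 1 to 4 with an array left out. It became 2 with median centring, a prior without a trend or no exposure term, each without Timp2, with the robust prior, without Mmp12, and with a filter at the 60th percentile, where Mmp3 was not tested. Between ICR and C57 the count of 0 became 1 with no scaling, 1 with arrays centred on the median, and 0 to 4 with an array left out. Between ICR and DBA it became 2 with no scaling and 0 to 3 with an array left out. For the DBA response the count of 2 became 1 with the constant at the 5th percentile, with a filter at the 60th percentile or with median centring, and 0 with no filter, with no scaling or when the prior on the variance came from the fit of the shared smoke effect. For the ICR response 0 became 5 with no scaling. Signs turned for Timp2 in the shared smoke effect without the C57 pair (-0.14), and with no scaling for Timp3 between ICR and DBA (-0.36) and Adam5 in the ICR response (-0.11). The cause of these changes was not tested.

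Over all probe sets the calls ranged from 0 to 65 for the shared smoke effect (3 as reported), from 66 to 253 between DBA and C57 (129), from 31 to 514 between ICR and C57 (171) and from 10 to 319 between ICR and DBA (87). The C57 response had 0 to 22 (10), that of DBA 7 to 53 (53), and that of ICR 0 to 1787 (0), the highest with no scaling. No array or pair can be left out of the response tests, which then have no residual degrees of freedom. Smoked and control arrays were paired by strain, and without strain as a block 0 members were called for smoke. Low signal limits the 26 probe sets below the filter.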
